A study of Mus musculus with 4 samples.

Results

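The 9 genes described here move calcium out of the cytosol of heart cells or set how fast it is moved. They are the sarcoplasmic reticulum pumps Atp2a1, Atp2a2 and Atp2a3, the pump regulators Pln, Sln and Strit1, the sodium-calcium exchanger Slc8a1, and the plasma membrane pumps Atp2b1 and Atp2b4. They were taken by symbol from the 32285 mouse genes of the deposited tables, and all 9 were found. Single-nucleus RNA (10x Genomics 3′ v3) had been sequenced from hearts of C57BL/6 mice at 6 months of age, with 3 hearts pooled for each library and 1 library per genotype. The libraries were a homozygous Rbm20 mutation after correction by gene editing (Rbm20_homo_corrected), the homozygous mutation (Rbm20_homo), the heterozygous mutation (Rbm20_het) and wild type (WT). Rbm20 encodes a splicing regulator of heart muscle, and its mutations are a cause of dilated cardiomyopathy. The labels used here give neither the allele, nor the editor, nor the age at which the editing was done. A single library stood for each genotype, so the spread between hearts is not known, genotypes were compared without a test, and brackets hold 95% intervals of counting error only.

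In each heartbeat calcium enters the heart muscle cell and triggers a larger release from the sarcoplasmic reticulum. Relaxation needs its removal: the reticulum pump (SERCA) returns most of it to the store, the exchanger carries the rest out in trade for sodium, and the plasma membrane pumps add a small outward flux. Phospholamban (Pln) and sarcolipin (Sln) are small membrane proteins that slow the pump, and the micropeptide DWORF, the product of Strit1, counters phospholamban. Ventricular muscle of the mouse relies on SERCA2 (Atp2a2) with phospholamban, while sarcolipin is known from the atria and from skeletal muscle.

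The 3 regulators are encoded by very short reading frames, shown here because they are the genes whose levels are set against the pump below. The frames come from the GENCODE vM21 transcripts of GRCm38, written 5′ to 3′ with the start and stop codons in capitals. Pln has 52 codons before its stop, in 1 piece at chr10:53343864-53344022 on the plus strand. Sln has 31 codons, at chr9:53853473-53853568 on the plus strand. Strit1, which that annotation calls Gm34302, has 34 codons split over 2 exons on the minus strand, at chr3:63483815-63483827 and chr3:63481290-63481381.
Pln: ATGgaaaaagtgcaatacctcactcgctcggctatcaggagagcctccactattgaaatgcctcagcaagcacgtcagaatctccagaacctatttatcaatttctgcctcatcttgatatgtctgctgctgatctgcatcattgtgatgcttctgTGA
Sln: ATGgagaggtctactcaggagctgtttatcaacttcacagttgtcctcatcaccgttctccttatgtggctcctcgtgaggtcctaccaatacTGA
Strit1: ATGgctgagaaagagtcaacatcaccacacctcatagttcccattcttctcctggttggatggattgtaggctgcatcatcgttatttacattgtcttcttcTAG

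Promoter windows of 300 bases (250 before to 50 after the start of the gene, from RefSeq on GRCm38.p6) were at hand for 7 of the 9 members. Those of Strit1 (chr3:63483857-63484156, minus strand) and Pln (chr10:53337436-53337735, plus strand) are printed, since both genes had lower levels in Rbm20_homo than in WT. Atp2b1 was lower there too, and its 2 windows are not printed.
Strit1: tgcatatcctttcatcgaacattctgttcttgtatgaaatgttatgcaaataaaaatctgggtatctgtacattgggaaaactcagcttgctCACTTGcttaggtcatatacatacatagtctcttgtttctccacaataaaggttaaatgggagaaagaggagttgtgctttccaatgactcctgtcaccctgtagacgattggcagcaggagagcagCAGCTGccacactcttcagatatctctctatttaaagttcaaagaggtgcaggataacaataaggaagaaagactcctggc
Pln: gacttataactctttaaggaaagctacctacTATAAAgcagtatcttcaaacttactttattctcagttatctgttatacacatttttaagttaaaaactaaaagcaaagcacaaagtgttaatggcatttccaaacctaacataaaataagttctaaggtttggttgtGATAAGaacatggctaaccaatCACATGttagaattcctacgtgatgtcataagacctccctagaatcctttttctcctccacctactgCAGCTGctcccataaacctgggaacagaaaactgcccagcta
Capitals mark matches, on either strand, to an E-box (CANNTG), a GATA motif (GATAAG), the MCAT element (CATTCC) or a TATA box (TATAAA). No matches overlapped in these windows. The Strit1 window held 2 E-boxes and no other match, and the Pln window held 2 E-boxes, 1 GATA motif and 1 TATA box. Over all 32817 windows searched, 72.3% held an E-box, 7.45% the GATA motif, 14.7% the MCAT element and 13.6% the TATA box. A match describes the letters only.

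After filtering, 41139 nuclei were analysed. Ventricular cardiomyocyte-like nuclei, named from marker genes, numbered 3047 in Rbm20_homo_corrected, 2915 in Rbm20_homo, 2378 in Rbm20_het and 2909 in WT, with 15321036 to 19475673 UMIs (distinct RNA molecules counted) per library. They formed 2 clusters: cluster 3 held 2859 of the Rbm20_homo nuclei, while cluster 0 held 2781 of those of Rbm20_homo_corrected, 2235 of Rbm20_het and 2857 of WT. Levels are UMIs per 1000000 non-mitochondrial UMIs of the nuclei summed (CPM). Malat1, an abundant nuclear RNA, took 24.2% of these UMIs in Rbm20_homo and 14.5% to 15.5% in the other libraries, and by CPM the median of 8755 genes in Rbm20_homo over WT was -0.21 on the log2 scale. That median was 0.13 for Rbm20_homo_corrected over Rbm20_homo. Ratios below are to be read against these medians. The 15 cardiomyocyte markers were all present in every library and summed to 65301 to 75709 CPM. Of these markers 14 were enriched in cluster 0 and 6 in cluster 3. Among the barcodes, 223 barcode sequences (0.487%) occurred in more than 1 library.

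Atp2a2 (ENSMUSG00000029467, chromosome 5, 122453513 to 122502225, minus strand, GRCm38), which encodes the SERCA2 pump, was found in 96.4% to 99.6% of these cardiomyocyte-like nuclei. It stood at 3107 CPM in Rbm20_homo_corrected [3079 to 3135], 1239 CPM in Rbm20_homo [1223 to 1255], 2273 CPM in Rbm20_het [2249 to 2297] and 3375 CPM in WT [3346 to 3404]. Rbm20_homo was lowest, Rbm20_het lay between it and WT, and the corrected library was close below WT, with no 2 of the 4 intervals touching. The log2 ratio was -1.45 for Rbm20_homo over WT [-1.47 to -1.42], -0.57 for Rbm20_het over WT [-0.59 to -0.55], 1.33 for Rbm20_homo_corrected over Rbm20_homo [1.30 to 1.35] and -0.12 for Rbm20_homo_corrected over WT [-0.14 to -0.10]. Under 10 other ways of scaling or choosing nuclei the first of these ran from -1.50 to -1.24. Gene models Gm43359 and Gm43360 lie inside Atp2a2 on the same strand.

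The other reticulum pumps were near the limit of detection in this class. Atp2a1 (ENSMUSG00000030730, chromosome 7, 126445858 to 126463108), the fast skeletal muscle pump, had 9 UMIs in Rbm20_homo_corrected, 9 in Rbm20_homo, 26 in Rbm20_het and 6 in WT. The 26 UMIs of Rbm20_het came from 17 nuclei, 1 of which held 6 after thinning to 1000 UMIs, and the ratio of Rbm20_het to WT was 4.50 [1.81 to 13.4]. Atp2a1 overlaps Rabep2 on the opposite strand, which had 227 to 311 UMIs in the same sums, and the sources used here do not state how strand was treated. Atp2a3 (ENSMUSG00000020788, chromosome 11, 72961169 to 72993044), a pump known from blood cells, endothelium and smooth muscle, had 9 UMIs in Rbm20_homo_corrected, 8 in Rbm20_homo, 9 in Rbm20_het and 9 in WT, too few to compare.

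**Figure D1:**
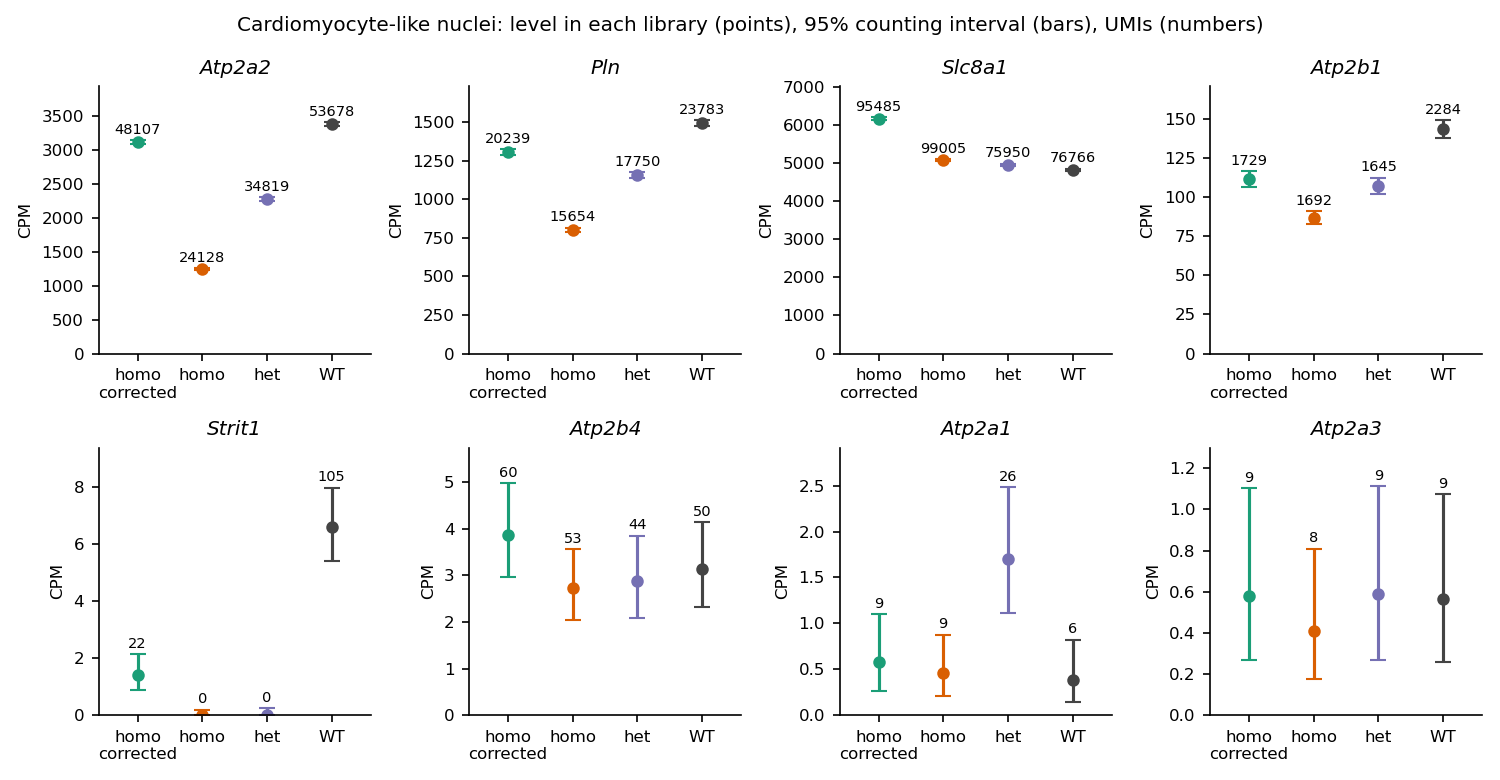
Level of 8 members in ventricular cardiomyocyte-like nuclei, in CPM from 0 upward, for Rbm20_homo_corrected, Rbm20_homo, Rbm20_het and WT from left to right; points are single libraries, bars are 95% counting intervals and numbers above them are UMIs. Atp2a2 and Pln are lowest in Rbm20_homo, Strit1 is at 0 in Rbm20_homo and Rbm20_het, and Slc8a1 is highest in Rbm20_homo_corrected.

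Pln (ENSMUSG00000038583, chromosome 10, 53337667 to 53345987), the main brake on SERCA2, had the same order of libraries as its target with smaller differences. It stood at 1307 CPM in Rbm20_homo_corrected [1289 to 1325], 804 CPM in Rbm20_homo [791 to 817], 1159 CPM in Rbm20_het [1142 to 1176] and 1495 CPM in WT [1476 to 1514]. The log2 ratio was -0.90 for Rbm20_homo over WT [-0.92 to -0.87], -0.37 for Rbm20_het over WT [-0.40 to -0.34] and 0.70 for Rbm20_homo_corrected over Rbm20_homo [0.67 to 0.73]. Rbm20_homo_corrected stayed below WT, at -0.19 [-0.22 to -0.17]. Pln lies inside Cep85l on the opposite strand, and Cep85l had 71.2 to 98.3 CPM.

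The number of Pln UMIs per 100 Atp2a2 UMIs differed between libraries, and no scaling changes this ratio. It was 42.1 in Rbm20_homo_corrected [41.4 to 42.8], 64.9 in Rbm20_homo [63.6 to 66.2], 51.0 in Rbm20_het [50.1 to 51.9] and 44.3 in WT [43.6 to 45.0]. Rbm20_homo had the highest value, Rbm20_het came next, and Rbm20_homo_corrected was slightly under WT. These values are over the whole class, and those of Rbm20_homo and WT did not differ beyond counting error within either cluster, as given with the clusters. After each nucleus was thinned to 1000 UMIs the values were 40.45 in Rbm20_homo_corrected, 62.4 in Rbm20_homo, 50.3 in Rbm20_het and 43.6 in WT. The ratio compares libraries; it does not give the proportion of the proteins or of the transcripts, since capture differs between genes.

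Strit1 (ENSMUSG00000103476, chromosome 3, 63481112 to 63483879, minus strand), the gene of the DWORF micropeptide, was found only in 2 of the 4 libraries. Cardiomyocyte-like nuclei held 22 UMIs in Rbm20_homo_corrected, 0 in Rbm20_homo, 0 in Rbm20_het and 105 in WT. That is 1.42 CPM in Rbm20_homo_corrected [0.890 to 2.15] and 6.60 CPM in WT [5.40 to 7.99]. The 0 of Rbm20_homo allows up to 0.154 CPM and that of Rbm20_het up to 0.196 CPM, taking 3 counts per library as the limit. The WT level was 42.9-fold above the limit of Rbm20_homo and 33.7-fold above that of Rbm20_het. The level of Rbm20_homo_corrected was 9.22-fold above the limit of Rbm20_homo. These folds leave out the counting error of the WT and Rbm20_homo_corrected levels, so they are not lower bounds. Rbm20_homo_corrected itself was below WT, with a log2 ratio of -2.22 [-2.95 to -1.54].

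At least 1 Strit1 UMI was seen in 0.591% of the cardiomyocyte-like nuclei of Rbm20_homo_corrected [0.351 to 0.932], in 0 of 2915 nuclei of Rbm20_homo, which allows a share of up to 0.103%, in 0 of 2378 nuclei of Rbm20_het, which allows up to 0.126%, and in 3.30% of those of WT [2.68 to 4.02]. Median depths of these nuclei were 4508 UMIs in Rbm20_homo_corrected, 5909 in Rbm20_homo, 5694 in Rbm20_het and 4849 in WT, so the libraries at 0 were the deeper ones. Fibroblast-like nuclei, which should lack Strit1, had a UMI in 0.165% of nuclei in Rbm20_homo_corrected, 0 of 3026 in Rbm20_homo, 0 of 2303 in Rbm20_het and 0.366% in WT. The zeros allow up to 0.0991% in Rbm20_homo and 0.130% in Rbm20_het. Median depths of the fibroblast-like nuclei were 2267 UMIs in Rbm20_homo_corrected, 2816 in Rbm20_homo, 2688 in Rbm20_het and 2430 in WT. Over all barcodes, with no filter, Strit1 had 52 UMIs in Rbm20_homo_corrected, 0 in Rbm20_homo, 0 in Rbm20_het and 163 in WT. Of 11168 genes with at least 50 UMIs in WT cardiomyocyte-like nuclei, 2 were at 0 in Rbm20_homo, 1 was at 0 in Rbm20_het, and Strit1 alone was at 0 in both. These genes were picked by their WT UMIs, so the count could find losses only and is a description.

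Sln (ENSMUSG00000042045, chromosome 9, 53850164 to 53854560), the gene of sarcolipin, had 0 UMIs in the cardiomyocyte-like nuclei of all 4 libraries, which allows at most 0.154 to 0.196 CPM. Over 45992 unfiltered barcodes it had 3 UMIs. Of the 7 atrial markers, Bmp10 had 0 UMIs in every library, and Myl7 had 1 in Rbm20_homo_corrected, 2 in Rbm20_homo, 0 in Rbm20_het and 6 in WT. The other 5 were not all near 0. Dkk3 had 9 UMIs in Rbm20_homo_corrected, 23 in Rbm20_homo, 8 in Rbm20_het and 0 in WT, Sbk2 had 35 in Rbm20_homo_corrected, 3 in Rbm20_homo, 57 in Rbm20_het and 38 in WT, and Myl4 had 95 in Rbm20_homo_corrected, 179 in Rbm20_homo, 70 in Rbm20_het and 84 in WT. Nppa, the natriuretic peptide gene that stressed ventricles also express, stood at 32.4 CPM in Rbm20_homo_corrected, 891 CPM in Rbm20_homo, 29.0 CPM in Rbm20_het and 9.81 CPM in WT, and Fgf13 at 2631 to 5131 CPM over the libraries. No cluster of atrial cardiomyocyte-like nuclei was found, so Sln could not be compared between genotypes.

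Slc8a1 (ENSMUSG00000054640, chromosome 17, 81373105 to 81738377, minus strand), the exchanger NCX1, did not share the pattern of the pump. It stood at 6166 CPM in Rbm20_homo_corrected [6127 to 6206], 5084 CPM in Rbm20_homo [5052 to 5115], 4957 CPM in Rbm20_het [4922 to 4993] and 4827 CPM in WT [4793 to 4861]. Rbm20_homo and Rbm20_het were within a log2 ratio of 0.07 and 0.04 of WT, and the corrected library was above the others, with log2 ratios of 0.28 over Rbm20_homo [0.27 to 0.29] and 0.35 over WT [0.34 to 0.37]. With median-of-ratios factors in place of CPM the log2 ratio was 0.28 for Rbm20_homo over WT. Set against the pump, there were 198.5 Slc8a1 UMIs per 100 Atp2a2 UMIs in Rbm20_homo_corrected, 410.3 in Rbm20_homo, 218 in Rbm20_het and 143 in WT. This ratio, like that of Pln, was highest in Rbm20_homo, but it stayed above the WT value in the corrected library, where that of Pln did not.

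The plasma membrane pump Atp2b1 (ENSMUSG00000019943, chromosome 10, 98914406 to 99026143) stood at 112 CPM in Rbm20_homo_corrected [106.5 to 117], 86.9 CPM in Rbm20_homo [82.8 to 91.1], 107 CPM in Rbm20_het [102 to 113] and 144 CPM in WT [138 to 150] in cardiomyocyte-like nuclei. All 3 libraries from Rbm20 mutants were below WT, and the intervals of Rbm20_homo_corrected and Rbm20_het overlapped. The log2 ratio was -0.73 for Rbm20_homo over WT [-0.82 to -0.63] and -0.36 for Rbm20_homo_corrected over WT [-0.45 to -0.27]. Atp2b4 (ENSMUSG00000026463, chromosome 1, 133699457 to 133801041), another plasma membrane pump, had 60 UMIs in Rbm20_homo_corrected, 53 in Rbm20_homo, 44 in Rbm20_het and 50 in WT, and their intervals overlapped at 2.72 to 3.88 CPM.

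A gene counted as measured from 100 UMIs in the sum of both libraries, and as higher or lower from a 1.5-fold difference in CPM. On these terms 4 of the 6 members measured in Rbm20_homo over WT were lower (Atp2a2, Pln, Strit1 and Atp2b1) and 0 were higher. Over all 11434 genes measured in that comparison, 21.5% were lower and 10.5% were higher by CPM, and 13.1% and 15.6% with median-of-ratios factors, under which Atp2b1 no longer passed and 3 members did. TMM factors gave 13.2% lower and 15.5% higher. With a limit of 2-fold, 2 members (Atp2a2 and Strit1) were lower, against 8.36% of all genes, and 0 were higher, against 5.64%. Strit1 reached the UMI minimum through WT alone, so it was counted by way of the library where it was highest. In Rbm20_het over WT, 1 of 5 members (Strit1, on the same terms) was lower against 6.12% of all genes, and 0 were higher against 4.37%; Atp2a2, at 1.49-fold lower, was just inside the limit. In Rbm20_homo_corrected over Rbm20_homo, 2 of 5 were higher (Atp2a2 and Pln) against 14.2% of all genes and 0 were lower against 8.78%. Only Atp2a2 of these 5 stayed higher with median-of-ratios or TMM factors, against 9.68% of all genes higher and 12% lower, and with a limit of 2-fold, against 4.81% higher and 3.82% lower. In Rbm20_homo_corrected over WT, 1 of 6 (Strit1) was lower against 7.74% and 0 were higher against 4.96%. With the 0 of Strit1 in Rbm20_homo set to 3 counts, the median log2 ratio of the measured members was -0.81 in Rbm20_homo over WT. It was -0.19 for all genes measured. In Rbm20_homo_corrected over Rbm20_homo the median was 0.51 for the measured members beside 0.12 for all genes. That 0.51 is the ratio of Atp2b4 alone, from 60 and 53 UMIs, which ran from -0.14 to 0.83 under other scalings and choices of nuclei. The comparisons share the WT or the Rbm20_homo library and are not independent of each other.

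**Figure D2:**
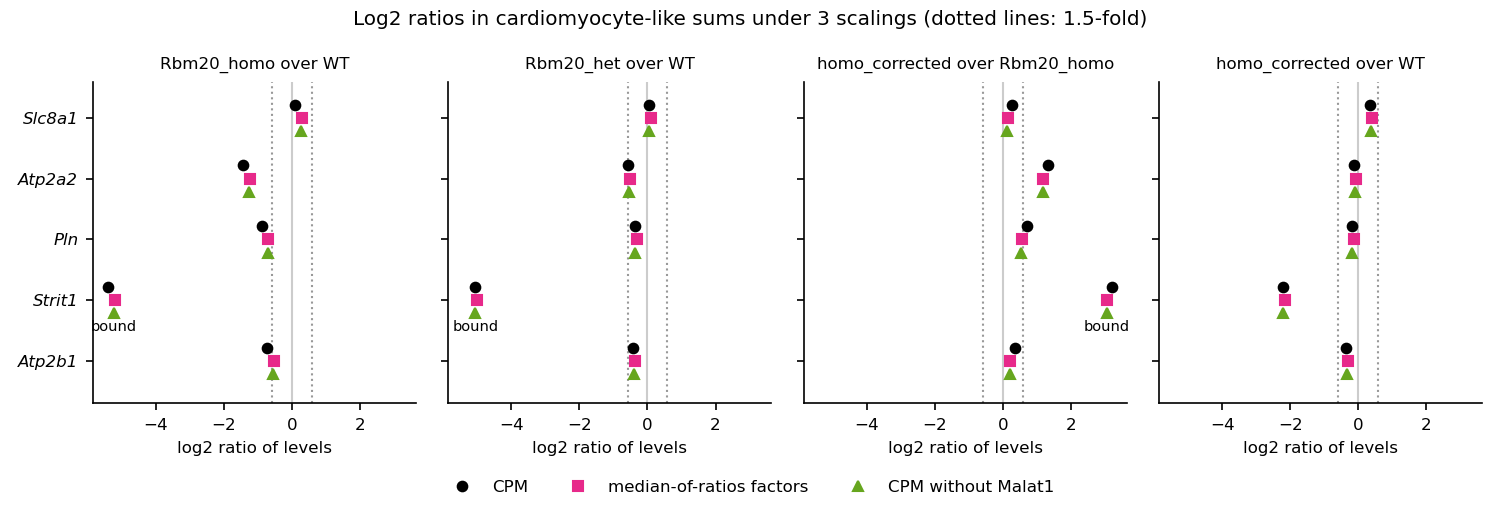
Log2 ratio of levels in ventricular cardiomyocyte-like sums for 5 members (rows) in 4 comparisons (panels), by CPM (circles), by median-of-ratios factors (squares) and by CPM without Malat1 (triangles), with dotted lines at 1.5-fold and "bound" where a library had 0 UMIs. Atp2a2 stays past 1.5-fold in Rbm20_homo over WT under each scaling, while Atp2b1 crosses the line.

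Within the class, Atp2a2 counts per nucleus were shifted to lower values in Rbm20_homo than in the other libraries. After thinning to 1000 UMIs per nucleus, the mean number of Atp2a2 UMIs was 3.10 in Rbm20_homo_corrected, 1.24 in Rbm20_homo, 2.26 in Rbm20_het and 3.29 in WT, with medians of 3 in Rbm20_homo_corrected, 1 in Rbm20_homo, 2 in Rbm20_het and 3 in WT. The share of nuclei with 0 Atp2a2 UMIs was 7.47% in Rbm20_homo_corrected, 34.2% in Rbm20_homo, 14.2% in Rbm20_het and 6.26% in WT. A Poisson count of the same mean gives 4.52% in Rbm20_homo_corrected, 29.0% in Rbm20_homo, 10.5% in Rbm20_het and 3.72% in WT. The variance was 1.25 to 1.43 times the mean for Atp2a2 and 1.84 to 2.16 times for Slc8a1, close together in the 4 libraries for each gene. Pln and Atp2a2 counts of single nuclei had Spearman coefficients of 0.04 in Rbm20_homo_corrected, 0.03 in Rbm20_homo, -0.02 in Rbm20_het and -0.02 in WT over 2378 to 3041 nuclei, which at counts this low carries little information.

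**Figure D3:**
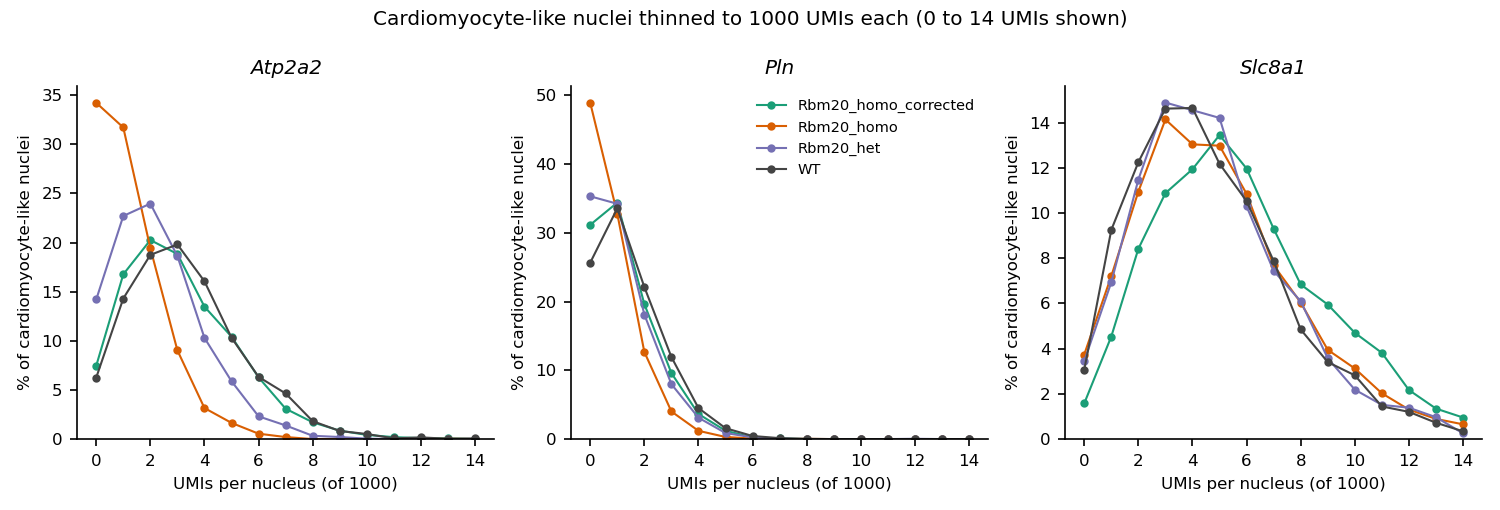
Share of ventricular cardiomyocyte-like nuclei (percent, vertical) with each number of UMIs of Atp2a2, Pln and Slc8a1 (horizontal), after thinning every nucleus to 1000 UMIs; lines are libraries. The Atp2a2 curve of Rbm20_homo lies to the left, with 34.2% of nuclei at 0, while the Slc8a1 curves of Rbm20_homo, Rbm20_het and WT nearly coincide.

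The clusters within the cardiomyocyte-like class gave further values from the corrected library. Its 266 nuclei in cluster 3, the cluster of most Rbm20_homo nuclei, had 2211 CPM of Atp2a2 [2132 to 2292] and 0 Strit1 UMIs, and its 2781 nuclei in cluster 0 had 3191 CPM of Atp2a2 [3162 to 3221] and 22 Strit1 UMIs. In Rbm20_homo, Atp2a2 was 1233 CPM in cluster 3 and 1602 CPM in the 56 nuclei of cluster 0 [1462 to 1752]. In WT it was 2273 CPM in the 52 nuclei of cluster 3 [2113 to 2441] and 3398 CPM in cluster 0. Atp2a2 was therefore lower in Rbm20_homo than in WT within each cluster, and lower in cluster 3 than in cluster 0 within each of these libraries; the members were left out of the clustering, but related genes were not, so the second of these is a description. Pln in WT was 1474 CPM in cluster 3 [1346 to 1611] and 1496 CPM in cluster 0 [1477 to 1515], with overlapping intervals. In Rbm20_homo it was 806 CPM in cluster 3 and 660.2 CPM in cluster 0, the other way round from Atp2a2. Within a cluster the Pln to Atp2a2 ratio of Rbm20_homo and WT did not differ beyond counting error. In cluster 3 there were 65.4 Pln UMIs per 100 Atp2a2 UMIs in Rbm20_homo [64.0 to 66.7] and 64.8 in WT [57.7 to 72.8], and in cluster 0 there were 41.2 in Rbm20_homo [34.7 to 48.8] and 44.0 in WT [43.3 to 44.7]. The higher ratio of the whole Rbm20_homo class went with the cluster that held most of its nuclei. With only 52 WT nuclei in cluster 3 and 56 of Rbm20_homo in cluster 0, cluster and genotype can hardly be told apart. In Rbm20_homo_corrected the ratio was 51.5 in cluster 3 [48.4 to 54.8] and 41.5 in cluster 0 [40.8 to 42.2], and in Rbm20_het it was 58.8 in cluster 3 [54.7 to 63.2] and 50.5 in cluster 0 [49.6 to 51.4]. Within cluster 0 the intervals thus put Rbm20_het above WT and Rbm20_homo_corrected below it. The Slc8a1 to Atp2a2 ratio did differ within clusters, at 412.9 in Rbm20_homo and 175.0 in WT in cluster 3, and at 282.4 in Rbm20_homo [254.3 to 314.1] and 142.6 in WT in cluster 0. Strit1 UMIs were all in cluster 0, which held nearly all nuclei of the libraries that had any.

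The tables also carry 2 added features named ABE_C and ABE_N, not defined in the sources used here. In the corrected library 1203 of the 3047 cardiomyocyte-like nuclei held at least 1 UMI of either. Their Atp2a2 level was 3284 CPM [3242 to 3326], against 2953 CPM [2916 to 2991] in the 1844 nuclei without one, a ratio of 1.11 [1.09 to 1.13]. The ratio was 1.10 for Pln [1.07 to 1.13], 1.14 for Slc8a1 [1.13 to 1.16] and 1.06 for Atp2b1 [0.962 to 1.17]. Strit1 had 14 UMIs in nuclei with such a UMI and 8 in those without, a ratio of 2.02 [0.790 to 5.55] that counting error alone does not separate from 1. Nuclei with such a UMI were deeper, at a mean of 5980 UMIs against 4496 in those without, so the split also sorts nuclei by depth, and its part in these ratios was not tested.

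Across the nucleus classes the members differed in where they were highest. Atp2a2, Pln and Slc8a1 were highest in cardiomyocyte-like nuclei, whereas Atp2b1, Atp2b4 and Atp2a3 were lowest there of 13 named classes by the median over the 4 libraries. In single libraries of small classes Atp2b4 was also at 0 UMIs in mesothelial-like nuclei, and Atp2a3 in Schwann-like and in lymphatic endothelial-like nuclei. Of the UMIs of each gene in all analysed nuclei, cardiomyocyte-like nuclei held 75.1% to 83.5% for Atp2a2, 72.4% to 82.6% for Pln, 71.3% to 80.2% for Slc8a1, 18.0% to 31.2% for Atp2b1, 2.78% to 4.04% for Atp2a3 and 1.71% to 2.73% for Atp2b4 over the 4 libraries.

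**Figure D4:**
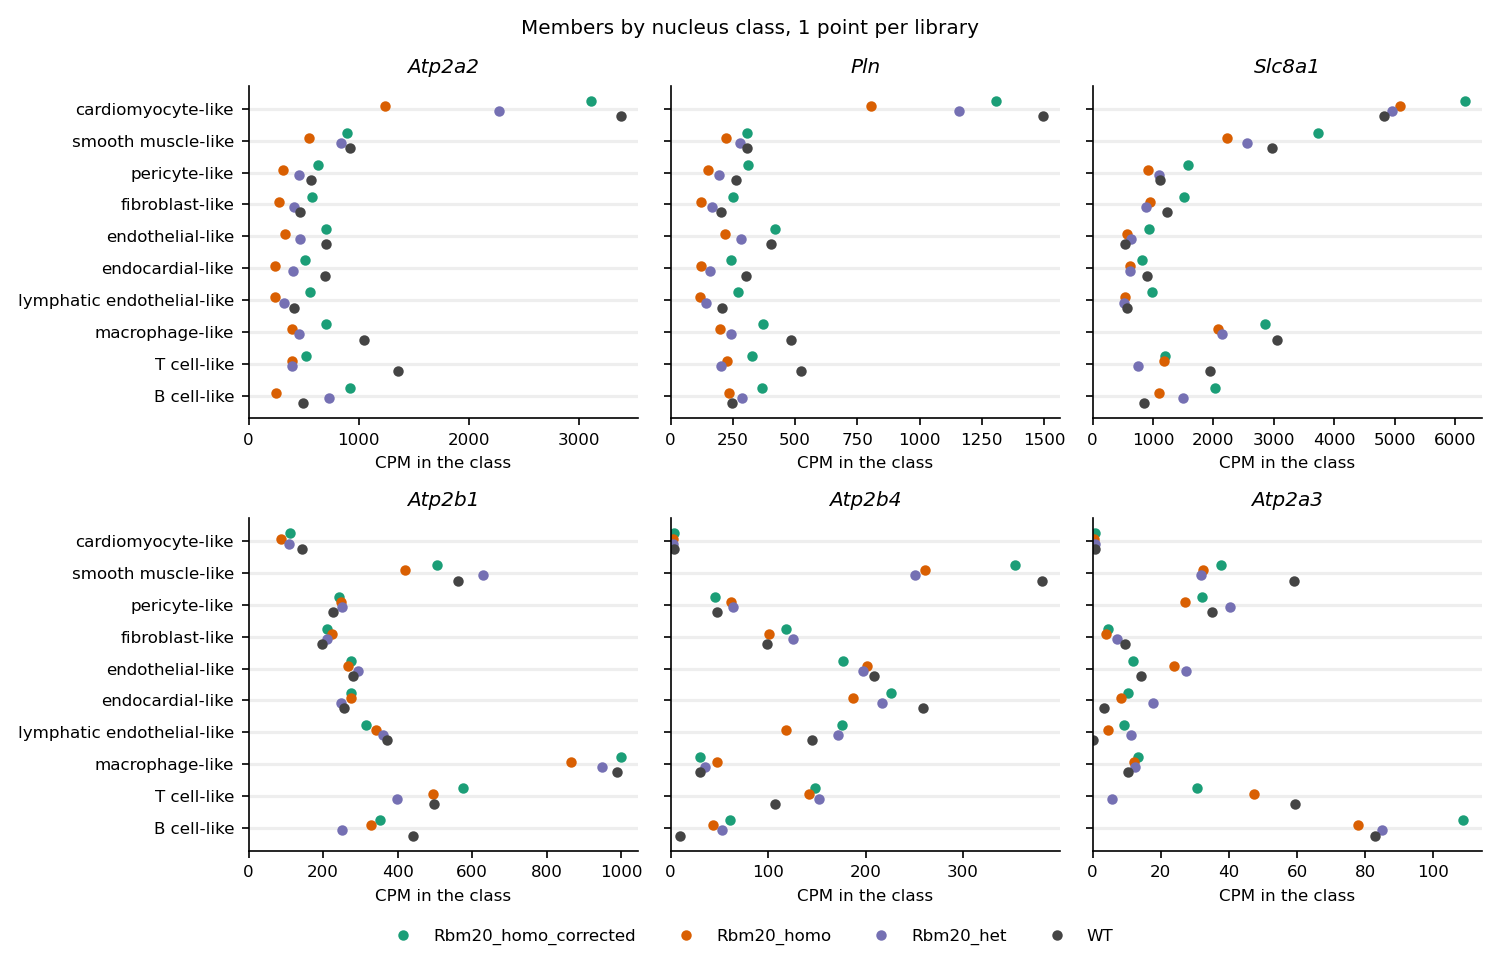
Level in CPM (horizontal, from 0) of 6 members in 10 nucleus classes (rows), with 1 point per library. Atp2a2, Pln and Slc8a1 peak in cardiomyocyte-like nuclei, Atp2b1 in macrophage-like nuclei, Atp2b4 in smooth muscle-like nuclei and Atp2a3 in B cell-like nuclei.

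Atp2b1 was highest in macrophage-like nuclei, at 999.7 CPM in Rbm20_homo_corrected [950.0 to 1051], 867 CPM in Rbm20_homo [812 to 924], 949.9 CPM in Rbm20_het [876 to 1028] and 989.7 CPM in WT [925 to 1058]. Smooth muscle-like nuclei followed at 420 to 630 CPM, then T cell-like nuclei at 399.6 to 577 CPM, and these 2 ranges overlap. In the larger non-muscle classes the genotypes lay close together: Rbm20_homo over WT gave a log2 ratio of 0.20 in fibroblast-like [0.09 to 0.31], -0.08 in endothelial-like [-0.24 to 0.09] and -0.19 in macrophage-like nuclei [-0.33 to -0.06]. Atp2b1 in cardiomyocyte-like nuclei, at -0.73, lay beyond each of these 3 intervals, but within that of smooth muscle-like nuclei, at -0.42 [-0.78 to -0.06].

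Atp2b4 was highest in smooth muscle-like nuclei, at 353 CPM in Rbm20_homo_corrected [300.3 to 412], 261 CPM in Rbm20_homo [214 to 316], 251 CPM in Rbm20_het [196 to 317] and 381 CPM in WT [297 to 480.0]. Endocardial-like nuclei (187 to 259 CPM) and endothelial-like nuclei (177 to 209 CPM) came next and do not differ beyond their spread over libraries. In the 456 to 650 UMIs of endothelial-like nuclei, Atp2b4 had a log2 ratio of -0.05 in Rbm20_homo over WT [-0.24 to 0.14].

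Of the named classes, Atp2a3 was highest in B cell-like nuclei, at 109 CPM in Rbm20_homo_corrected, 77.9 CPM in Rbm20_homo, 85.0 CPM in Rbm20_het and 82.7 CPM in WT, from only 9 to 25 UMIs per library. T cell-like (5.63 to 59.3 CPM), smooth muscle-like (31.8 to 59.0 CPM) and pericyte-like nuclei (27.2 to 40.4 CPM) overlapped in the next places. In endothelial-like nuclei Atp2a3 was 11.7 CPM in Rbm20_homo_corrected [8.48 to 15.8], 23.8 CPM in Rbm20_homo [17.9 to 31.1], 27.3 CPM in Rbm20_het [21.3 to 34.5] and 14.1 CPM in WT [9.54 to 19.9], from 31 to 70 UMIs per library. This class pools 2 unlike clusters. In the 660 nuclei of cluster 11, Atp2a3 was 65.2 CPM in Rbm20_homo_corrected [40.8 to 98.7], 170.0 CPM in Rbm20_homo [127.4 to 222.4], 166.6 CPM in Rbm20_het [123.7 to 219.7] and 123.0 CPM in WT [78.8 to 183.1], which is above the B cell-like level in every library but Rbm20_homo_corrected. In the 5631 nuclei of cluster 2 it was 6.30 CPM in Rbm20_homo_corrected [3.90 to 9.63], 0.512 CPM in Rbm20_homo [0.0130 to 2.85], 8.83 CPM in Rbm20_het [5.40 to 13.6] and 3.48 CPM in WT [1.4 to 7.17]. In cluster 2 Rbm20_homo was lowest, from 1 UMI, and its interval overlapped that of WT, from 7 UMIs, but not those of Rbm20_het and Rbm20_homo_corrected. In cluster 11 the intervals of Rbm20_homo, Rbm20_het and WT overlapped.

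Free RNA in droplets can put cardiomyocyte transcripts into other nuclei, so levels of the cardiomyocyte genes elsewhere were set beside the 15 cardiomyocyte markers. Each level was taken as a percent of the cardiomyocyte-like level of the same library. In macrophage-like nuclei Slc8a1 stood at 40.7% to 63.1%, above 13 or 14 of the 15 markers, whose median was 12.4% to 24.8%. In smooth muscle-like nuclei Slc8a1 stood at 43.7% to 61.6%, above 12 or 13 markers with medians of 8.51% to 10.4%. In endothelial-like nuclei it stood at 10.97% to 15.1%, within the range of the markers and near their median of 11.3% to 15.2%. Slc8a1 stood at 17.8% to 25.6% in fibroblast-like nuclei, above 12 to 14 markers, and at 18.0% to 25.6% in pericyte-like nuclei, above 11 to 13. In endocardial-like and lymphatic endothelial-like nuclei it was above 12 markers. The exchanger transcripts of macrophage-like and smooth muscle-like nuclei were thus well above the typical marker. Those of fibroblast-like, pericyte-like, endocardial-like and lymphatic endothelial-like nuclei were also above it, and those of endothelial-like nuclei were not.

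Atp2a2 stood above 12 or 13 of the 15 markers in fibroblast-like, endothelial-like, endocardial-like, lymphatic endothelial-like, pericyte-like, smooth muscle-like and macrophage-like nuclei. It was at 27.2% to 44.4% of the cardiomyocyte-like level in smooth muscle-like and 20.4% to 26.5% in endothelial-like nuclei. Pln stood at 20.4% to 27.9% in smooth muscle-like and 24.4% to 31.95% in endothelial-like nuclei. In smooth muscle-like nuclei Atp2a2 was 890.4 CPM in Rbm20_homo_corrected [805 to 982], 549.7 CPM in Rbm20_homo [479.6 to 627], 835 CPM in Rbm20_het [732 to 949] and 917 CPM in WT [784 to 1065]. Rbm20_homo over WT gave a log2 ratio of -0.74 there [-1.03 to -0.44], while the median of the 15 markers was -0.14. In fibroblast-like nuclei it was -0.73 [-0.81 to -0.65] beside a marker median of -0.36. That class sat mostly in different clusters, with 2693 of 3026 Rbm20_homo nuclei in cluster 4 and 1730 of 1914 WT nuclei in cluster 1. Within them Atp2a2 was 277.1 CPM in Rbm20_homo and 518.5 CPM in WT in cluster 4, which held 42 WT nuclei, and 304.5 CPM in Rbm20_homo and 472.4 CPM in WT in cluster 1. The log2 ratio in endothelial-like nuclei was -1.09 [-1.22 to -0.96] beside -0.34. Atp2a2 was lower in Rbm20_homo than in WT in each of these classes; the part of free RNA in this was not tested.

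**Figure D5:**
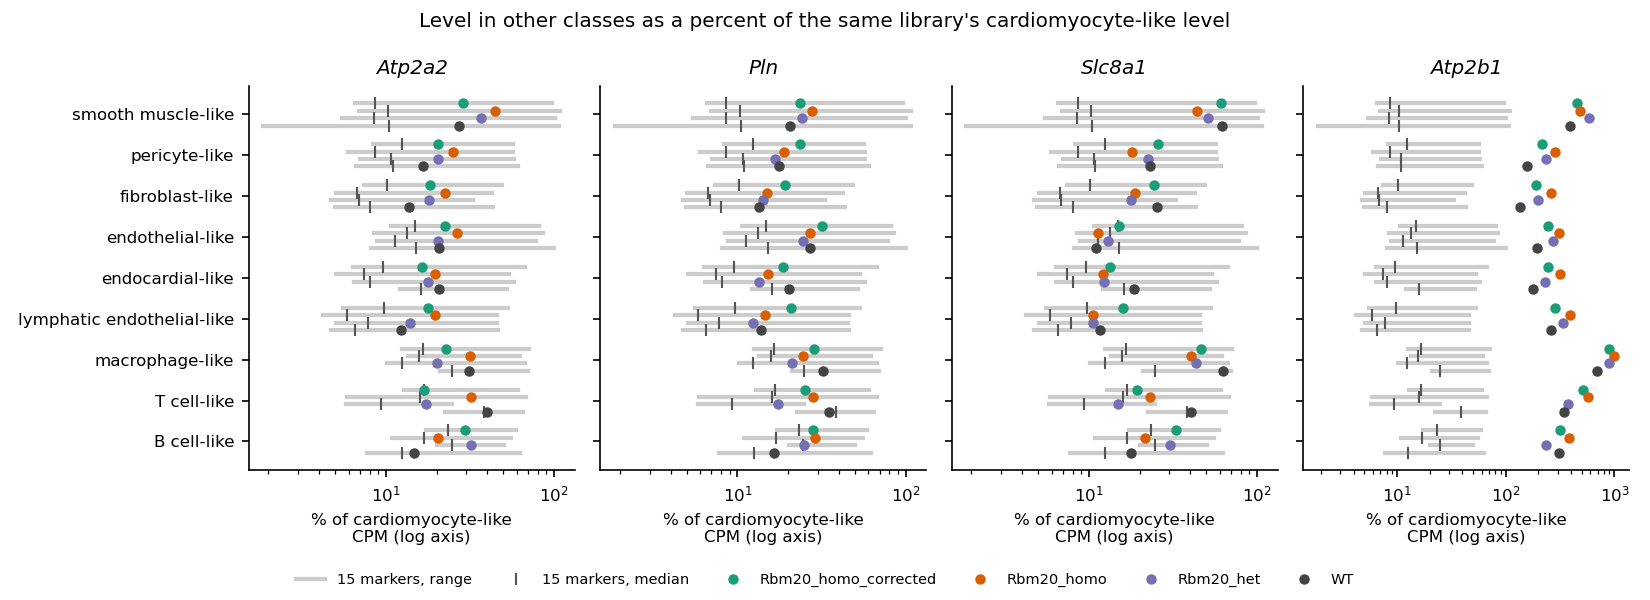
Level of Atp2a2, Pln, Slc8a1 and Atp2b1 in 9 other classes as a percent of the same library's cardiomyocyte-like level (horizontal, log axis); points are libraries, and grey lines and ticks give the range and median of 15 cardiomyocyte markers in the same library. Slc8a1 lies to the right of the marker medians in every class shown but endothelial-like nuclei, and Atp2b1 lies above 100% in every class shown.

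The genes whose levels ran most like those of the members were found over 32 profiles (8 classes in 4 libraries) among 12261 genes, by the Pearson coefficient of log2(CPM + 1). These profiles share libraries and free RNA, and the coefficients are descriptions. Atp2a2 ran most like Pln (0.97), Mlf1 (0.96) and Dmpk (0.96), and Pln most like Atp2a2, Erbb4 (0.96) and Tnni3k (0.95). Slc8a1 ran most like Asb2 (0.93), Sox6 (0.89) and Tmod1 (0.88). Atp2b1 ran with B3galnt1 (0.96), Wwp2 (0.93) and Itga4 (0.91), Atp2b4 with Ttc28, Tspan2 and Lrig3 (0.93 each), and Atp2a3 with Prkacb (0.89), Slc25a25 (0.87) and Arhgap1 (0.86). Atp2a1, Sln and Strit1 stayed under 10 CPM in every profile and were left out of this search.

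The calcium and sodium genes around the members were taken as 5 lists. Of the partners of SERCA and phospholamban, 17 of 19 were in the tables and 15 were measured in cardiomyocyte-like nuclei. In Rbm20_homo over WT, 4 of these were lower by at least 1.5-fold (Hrc, Akap7, Calr and Hspb6) and 0 were higher, with a median log2 ratio of -0.41 beside -0.19 for all genes measured; with median-of-ratios factors 2 were lower and 1 higher. Over all genes measured 21.5% were lower by CPM and 13.1% with median-of-ratios factors, so 4 of 15, and then 2 of 15, are near the share of all genes. Hrc, a calcium-binding protein of the reticulum lumen, stood at 93.3 CPM in Rbm20_homo_corrected, 50.7 CPM in Rbm20_homo, 83.7 CPM in Rbm20_het and 126 CPM in WT. Akap7, an anchor that brings protein kinase A to phospholamban, stood at 52.9 CPM in Rbm20_homo_corrected, 31.9 in Rbm20_homo, 57.1 in Rbm20_het and 63.6 in WT. Calr, a chaperone that binds calcium in the reticulum, stood at 12.6 CPM in Rbm20_homo_corrected, 11.1 in Rbm20_homo, 11.8 in Rbm20_het and 18.0 in WT. Mrln, the gene of the micropeptide myoregulin, had 1.23 to 2.65 CPM and too few UMIs to be measured.

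Of 18 measured genes of calcium release and entry, 3 were higher in Rbm20_homo than in WT (Casq1, Casq2 and Cacna1g) and 3 were lower (Itpr2, Cacnb2 and Orai1), with a median log2 ratio of -0.13. With median-of-ratios factors 6 were higher and 1 lower. Over all genes measured 10.5% were higher and 21.5% lower by CPM, and 15.6% and 13.1% with median-of-ratios factors, so 3 of 18 lower is no more than the share of all genes, and the count of higher genes moves with the scaling. Casq1, the calsequestrin of fast skeletal muscle, stood at 57.9 CPM in Rbm20_homo_corrected, 171 CPM in Rbm20_homo, 40.3 CPM in Rbm20_het and 8.99 CPM in WT. Cacna1g, a T-type calcium channel, stood at 67.4 CPM in Rbm20_homo_corrected, 115 in Rbm20_homo, 55.6 in Rbm20_het and 29.8 in WT, and Casq2, the cardiac calsequestrin, at 429 CPM in Rbm20_homo_corrected, 498 in Rbm20_homo, 312 in Rbm20_het and 271 in WT. The store-operated channel gene Orai1 stood at 16.5 CPM in Rbm20_homo_corrected, 11.9 in Rbm20_homo, 16.8 in Rbm20_het and 21.7 in WT.

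Of 7 measured genes of sodium transport, 1 was lower in Rbm20_homo than in WT and 0 were higher, with a median log2 ratio of -0.30, against 21.5% of all genes lower and 10.5% higher. The lower gene was Fxyd1, which encodes phospholemman, a regulator of the sodium pump, at 119 CPM in Rbm20_homo_corrected, 104 CPM in Rbm20_homo, 124 CPM in Rbm20_het and 183 CPM in WT. Atp1b3, a sodium pump subunit gene, stood at 21.8 CPM in Rbm20_homo_corrected, 17.3 in Rbm20_homo, 22.5 in Rbm20_het and 23.1 in WT. Fxyd5 had under 100 UMIs in that comparison, at 1.42 CPM in Rbm20_homo_corrected, 2.26 in Rbm20_homo, 2.22 in Rbm20_het and 1.64 in WT. Of 7 measured genes of mitochondrial calcium transport, 1 was lower and 0 were higher by CPM, and 0 lower and 1 higher with median-of-ratios factors, against the same shares, with a median by CPM of -0.19 beside -0.19 for all genes measured. Mcu, the pore of the calcium uniporter, stood at 98.3 CPM in Rbm20_homo_corrected, 60.6 CPM in Rbm20_homo, 106 CPM in Rbm20_het and 101 CPM in WT. In Rbm20_homo over WT, Micu3 had a log2 ratio of -0.31 and Slc8b1 one of -0.20.

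Among 9 further genes of the pump and exchanger families, 4 were measured in Rbm20_homo over WT, of which 2 were higher and 0 lower, with a median log2 ratio of 0.75 beside 10.5% of all genes higher, from few genes and few UMIs. The 2 higher genes reached the UMI minimum through Rbm20_homo: Atp2b3 had 102 UMIs there and 15 in WT, and Slc8a2 had 108 and 27. At such levels they could hardly have been measured without being higher, so the count and the median say little. Atp2b3 stood at 4.20 CPM in Rbm20_homo_corrected, 5.24 CPM in Rbm20_homo, 4.63 CPM in Rbm20_het and 0.943 CPM in WT. Slc8a2, an exchanger best known from brain, stood at 2.71 CPM in Rbm20_homo_corrected, 5.55 in Rbm20_homo, 2.61 in Rbm20_het and 1.70 in WT. Atp2b2, at 5.23 CPM in Rbm20_homo_corrected, 3.18 in Rbm20_homo, 6.72 in Rbm20_het and 1.51 in WT, and Slc24a5, at 1.55 CPM in Rbm20_homo_corrected, 2.26 in Rbm20_homo, 1.18 in Rbm20_het and 1.45 in WT, had too few UMIs in these 2 libraries to be measured. In Rbm20_homo_corrected over Rbm20_homo, 3 of the 15 SERCA and phospholamban partners were higher (Hrc, Akap7 and Canx) and 0 lower, and of the 18 release and entry genes 3 were higher and 2 (Casq1 and Cacna1g) lower. Both counts are near the shares of all genes, of which 14.2% were higher and 8.78% lower. Of 6 further family genes measured there, 4 were higher (Atp2b2, Atp2c1, Slc8b1 and Slc24a3) and 1 was lower (Slc8a2). These are above those shares, but mostly from few UMIs. With median-of-ratios factors 2 were higher and 1 lower, against 9.68% and 12% of all genes. Of 7 mitochondrial genes 2 were higher (Mcu and Slc8b1), and 0 with median-of-ratios factors. Of 7 sodium transport genes 0 were higher and 0 lower.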

How the data were processed

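Hearts had been profiled by single-nucleus RNA sequencing, 1 library per genotype. The deposited tables hold counts of UMIs per gene and barcode, raw per the file headers and the values. Cell Ranger 6.1.1 and Seurat 4, on mm10 (GRCm38), are given per the submitters' processing notes, while the matrix header names Cell Ranger 4.0.0. Whether intronic reads were counted, and with which strand setting, is not given in the sources used here. The protocol text also mentions CD45+ cells, while the tables hold cardiomyocyte-like, fibroblast-like and endothelial-like nuclei.

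Nuclei needed 300 genes or more and 5% or less of mitochondrial UMIs, and the barcodes with the highest scrublet scores were removed (0.8% per 1000 barcodes in the deposited library), since the caller's own threshold marked 0 nuclei in 2 libraries. Counts were scaled to 10000 per nucleus, and 2000 variable genes, without the members, 30 principal components, 20 neighbours and Leiden resolution 0.8 gave 27 clusters (Python 3.11.15, scanpy 1.11.5, leidenalg 0.10.2, igraph 0.11.9). Of these, 17 were named from marker lists, where at least 3 markers were enriched 2-fold and the cluster held at least 100 nuclei, limits set after the data were seen. The 10 others stayed unnamed (9.34% to 11.3% of nuclei per library). Those clusters were small, showed markers of more than 1 type, or were led by haemoglobin and mitochondrial genes.

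UMIs were summed per library and class and divided by non-mitochondrial totals (CPM). Intervals are 95% and cover counting error only: exact Poisson for levels, conditional binomial for ratios, Clopper-Pearson for shares (scipy 1.17.1, numpy 2.4.6). A count of 0 was given a limit of 3 counts. A gene was measured in a comparison with at least 100 UMIs in the 2 libraries, and called at 1.5-fold. Thinning drew 1000 UMIs per nucleus. No p-values were computed. The alternatives were other scalings, filters, clusterings, thinning, a mean over nuclei and a 2-fold limit. The steps were tested on simulated data. In each list the 4 genes with the largest difference between Rbm20_homo and WT were to be named. Some of these are not reported here. The members and lists were chosen with earlier results of these data known.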

Additional observations from a re-analysis of the deposited data

How the results depend on the processing

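No direction of a called ratio was reversed under any alternative. Of the 11 log2 ratios past 1.5-fold by CPM, 9 stayed past it with median-of-ratios factors, TMM factors or CPM without Malat1, and all 11 under stricter nucleus filters, no doublet removal, members among the variable genes and resolution 1.6. These 11 include ratios under the UMI minimum, which were not called. They are Atp2a1 in Rbm20_het over WT and in Rbm20_homo_corrected over WT, and Strit1 in Rbm20_homo_corrected over Rbm20_homo. The members lower in Rbm20_homo than in WT numbered 4, and 2 with a fold of 2. Those higher in Rbm20_homo_corrected than in Rbm20_homo numbered 2, and 1 with a fold of 2, with median-of-ratios factors, with TMM factors and with CPM without Malat1. In thinned nuclei 1 member, Atp2b4, was higher in Rbm20_homo_corrected than in WT, against 0. Its means were then 0.0043 UMIs per nucleus in Rbm20_homo_corrected and 0.0028 in WT, too few to compare. No share over all genes is given for this count, which is a description only. In nuclei up to the lower quartile of other classes' markers, an alternative chosen after seeing the data, 2 members were lower in Rbm20_het than in WT and 2 in Rbm20_homo_corrected than in WT, against 1 each. No share over all genes is given for these counts either. Over all alternatives the lowest log2 ratio of Atp2b1 in Rbm20_het over WT was -0.59, close to the 1.5-fold limit. The lowest of Atp2b4, a gene of few UMIs, was -1.03 in Rbm20_het over WT and -0.66 in Rbm20_homo_corrected over WT. Atp2b1 in Rbm20_homo over WT ranged from -0.85 to -0.52. Over all genes in Rbm20_homo over WT, 15.5% were higher and 13.2% lower with TMM factors, against fewer higher and more lower by CPM. The class with the highest level of a member was the same in 48 of 56 checks. The planned use of nuclei without any UMI of other classes' markers was not run, since 0 cardiomyocyte-like nuclei had none. No paired analysis was possible because each genotype had 1 library. One library per genotype means that genotype, pool and library cannot be told apart. Depth limits Atp2a1, Atp2a3, Atp2b4, Sln and Strit1 most.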

Other observations

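The neighbourhood of Strit1 on chromosome 3 was looked at after its values were seen. Gm34240, a long noncoding RNA gene 23.2 kb away on the opposite strand, had 21 UMIs in the cardiomyocyte-like nuclei of Rbm20_homo_corrected, 1 in Rbm20_homo, 1 in Rbm20_het and 106 in WT. Mme, which encodes the peptidase neprilysin and lies 95.1 kb away, had 83 UMIs in Rbm20_homo_corrected, 7 in Rbm20_homo, 84 in Rbm20_het and 363 in WT. Of the 11168 genes with at least 50 WT UMIs, 3 had at most 5% of the WT UMIs in both Rbm20_homo and Rbm20_het: Strit1, Gm34240 and Myh7b. Myh7b, a myosin heavy chain gene on chromosome 2, had 2534 UMIs in Rbm20_homo_corrected, 6 in Rbm20_homo, 20 in Rbm20_het and 5680 in WT.

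The number of Pln UMIs per 100 Atp2a2 UMIs in other classes was also looked at after the values were seen. In fibroblast-like nuclei it was 43.8 in Rbm20_homo_corrected, 43.2 in Rbm20_homo, 40.4 in Rbm20_het and 43.4 in WT. B cell-like nuclei ran from 39.4 to 93.1 over the libraries, with Rbm20_homo highest at 93.1 [53.0 to 162.9] from 27 Pln and 29 Atp2a2 UMIs, and T cell-like nuclei ran from 38.6 to 62.5.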
